A study of Rattus norvegicus with 113 samples.

Results

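The heat shock response was followed over the injured rat brain in 10 genes, which were the small heat shock proteins Hspb1, Hspb8 and Cryab, the larger chaperones Hspa1b, Hspa8, Hsph1 and Hsp90aa1, and the co-chaperones Dnajb1, Bag3 and Bag5. Members were chosen by name, and their probes were found by joining the RefSeq identifier deposited for each probe to the RefSeq gene table. Of the 10 genes, 9 had a probe, out of 16691 genes named on the arrays, which made 14 of the 45598 probes of the larger array design and 13 of the 30367 probes of the smaller one. No probe carried an identifier of Dnajb1. The identifier filed for Hspa1b belongs in the current table to Hspa1a, with Hspa1b among its older symbols, so the pair of probes is called Hspa1a here. Hspa1a and Hspa1b are nearly identical genes, and the probes may have bound RNA of either. Hspa1a had no probe on the smaller design, which left 8 genes there.

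Messenger RNA of the hippocampus and of the cortex was measured in Sprague-Dawley rats, described as adult males, with 1 dye on 113 arrays. TBI rats received a parasagittal fluid percussion, a brief pressure pulse to the exposed dura, graded moderate in the sample labels and severe in the study's methods. Sham rats had the same anesthesia and surgery without the pulse, and naive rats were neither anesthetized nor handled. Tissue was taken 24 hr, 2 weeks, 3 months, 6 months and 1 year later, with 4 arrays per group, except that the hippocampus at 24 hr had 2 sham and 3 TBI arrays, and a naive group of that tissue and interval was not analysed here. All groups shared the strain, and no transgene or drug treatment was named for any of them.

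Heat shock proteins bind unfolded proteins and keep them from clumping. The small heat shock proteins hold such clients without using ATP, HSP70 and HSP90 proteins fold them in cycles of ATP hydrolysis, and co-chaperones set the pace and the target of these cycles. The J-domain protein Dnajb1 delivers clients to HSP70, while Hsph1 and the BAG proteins release its bound nucleotide. Bag3 also links HSP70 to Hspb8 and to the degradation of clients by autophagy. Heat shock factor 1 switches on many of these genes by binding heat shock elements, which are inverted repeats of the unit GAA. In the brain HSPB1 is best known from reactive astrocytes and blood vessels, and CRYAB from oligodendrocytes and astrocytes.

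RefSeq promoters on the GRCr8 assembly were found for 8 of the 10 genes, and the 250 bases before the start of each were searched on both strands for paired units, written GAANNTTC or TTCNNGAA. Of these 8 promoters, 6 held such a pair, against 13.5% of 33469 rat promoters of the same length. A run of 3 units, GAANNTTCNNGAA or TTCNNGAANNTTC, which contains the pair, was found in 2 of the 8, against 0.663% of all. The sequences below belong to the 3 genes called between TBI and sham and to Hspa1a and Bag3, which with Hspb1 had the largest differences in the cortex at 24 hr, and capitals mark the paired units. Hspb1 is at chr12:26432302-26432551 (minus strand), Hspb8 at chr12:45837058-45837307 (plus), Bag3 at chr1:192533210-192533459 (plus), Hspa1a at chr20:3859506-3859755 (plus) and Bag5 at chr6:136593279-136593528 (minus).
Hspb1: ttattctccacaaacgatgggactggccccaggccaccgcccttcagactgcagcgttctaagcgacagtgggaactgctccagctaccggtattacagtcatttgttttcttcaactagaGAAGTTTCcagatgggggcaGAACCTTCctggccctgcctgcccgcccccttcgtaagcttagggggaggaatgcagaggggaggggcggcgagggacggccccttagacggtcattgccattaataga
Hspb8: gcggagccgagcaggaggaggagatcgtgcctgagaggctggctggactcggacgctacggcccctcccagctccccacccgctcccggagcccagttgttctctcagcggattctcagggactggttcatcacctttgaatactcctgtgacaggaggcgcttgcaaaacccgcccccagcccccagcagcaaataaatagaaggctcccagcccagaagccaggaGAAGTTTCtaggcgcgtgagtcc
Bag3: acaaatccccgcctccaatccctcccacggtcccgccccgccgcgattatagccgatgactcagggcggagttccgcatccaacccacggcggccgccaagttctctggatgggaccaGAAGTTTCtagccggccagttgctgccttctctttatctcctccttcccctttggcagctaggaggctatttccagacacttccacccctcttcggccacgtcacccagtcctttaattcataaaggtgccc
Hspa1a: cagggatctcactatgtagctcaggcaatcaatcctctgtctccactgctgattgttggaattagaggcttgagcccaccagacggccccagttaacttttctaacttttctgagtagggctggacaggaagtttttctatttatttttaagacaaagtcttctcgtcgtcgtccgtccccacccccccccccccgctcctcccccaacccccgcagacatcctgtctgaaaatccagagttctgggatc
Bag5: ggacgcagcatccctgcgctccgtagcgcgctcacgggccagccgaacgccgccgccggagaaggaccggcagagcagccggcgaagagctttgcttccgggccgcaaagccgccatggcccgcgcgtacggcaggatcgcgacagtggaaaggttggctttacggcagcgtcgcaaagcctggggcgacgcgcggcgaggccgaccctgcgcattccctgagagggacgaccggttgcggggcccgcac
The Hspb1 pairs began 129 and 109 bases before the start, the Hspb8 pair 23 bases and the Bag3 pair 132 bases before it. No pair was found in the windows of Hspa1a and Bag5, which says only that these letters are absent there. Hspa8, the constitutive HSP70 of most cells, held 3 units in the runs GAAAGTTCCAGAA, 213 bases before the start, and TTCTGGAAGGTTC, 55 bases before it. The promoter of Hsph1 held TTCTGGAAAGTTC 36 bases before the start. Dnajb1 held a pair 11 bases before it.

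Levels are given as the log2 of the processed signal minus the median of the array, so a difference of 1 is a 2-fold change, and levels of different genes or of both designs were not compared. Every member was well above background in all of its arrays apart from Hspa1a in 95 of 96 and Hspb8 in 112 of 113. Between 41.2% and 93.0% of an array's probes were well above background (median 55.1%), and none was saturated. The 93.0% belonged to cortex sham replicate 3 of 2 weeks, whose median signal of 10.8 (log2) stood far above the other arrays, and in which all 9 measured members lay far below the other 3 arrays of their group. Cortex naive replicate 4 of 2 weeks (median signal 7.50) and hippocampus naive replicate 2 of 6 months (6.61) also stood apart. Each group lay on a single slide, so slide and injury could be separated only where TBI and sham shared a slide, which was so for the hippocampus at 2 weeks, 3 months and 1 year and the cortex at 3 months and 1 year. Naive and TBI arrays of a tissue and interval never shared a slide, so slide and injury cannot be told apart between them. Cortex markers had a mean level of 2.23 to 2.85 in the naive cortex groups and 0.66 to 1.10 in the naive hippocampus groups of the same design, and hippocampus markers 1.42 to 1.84 and 2.63 to 2.88, although 3 of the 7 hippocampus markers were not well above background in these naive arrays. In tissue extracts a larger number of cells of a type cannot be told apart from more RNA per cell.

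The comparison of TBI with sham asks what the injury added to surgery. Over 5 intervals and both tissues it gave 88 tests of members, of which 3 passed an adjusted p of 0.05 in limma. In the hippocampus Hspb1 and Hspb8 rose at 24 hr, and Bag5 fell at 2 weeks. At 24 hr, 2 of 8 members passed where 14.2% of all tested probes did, and at 2 weeks 1 of 9 where 2.43% did. No member passed at 3 months (0.0138% of all), 6 months (0.0134%) or 1 year (0%). In the cortex no member passed at any interval, at 24 hr (0.217% of all), 2 weeks (0.00849%), 3 months (0%), 6 months (0.0805%) or 1 year (0%). With normexp background correction, however, 4 members passed in the cortex at 24 hr, Hspb8 (adjusted p = 0.0165), Cryab (0.0179), Hsph1 (0.0205) and Bag3 (0.0441), and Hspb8 also passed there with no filter on dim probes (0.032) and without TBI replicate 3 (0.0482). The share of all probes passing in these runs was not counted, and the 0.217% does not apply to them.

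By the threshold of the study's methods, a fold change of at least 1.4 with an unadjusted p under 0.05, 15 tests of members passed. Of these, 6 of 9 were in the cortex at 24 hr (10.3% of all probes) and 4 of 8 in the hippocampus at 24 hr (24.8%), and all 10 were higher after TBI. The hippocampus had 2 of 9 at 2 weeks (4.56%), 1 of 8 at 3 months (1.91%), 1 of 9 at 6 months (2.51%) and 0 at 1 year (4.5%). Later cortex intervals had 0 at 2 weeks (4.04%), 0 at 3 months (2.97%), 1 of 9 at 6 months (3.94%) and 0 at 1 year (1.57%). An unadjusted p under 0.05 alone was reached in the hippocampus by 4, 5, 1, 1 and 2 members in order of interval, where 31.9%, 25.1%, 6.24%, 2.87% and 14.5% of all probes reached it. In the cortex 6, 0, 1, 1 and 1 members reached it, where 20.8%, 4.04%, 4.37%, 9.87% and 5.77% of all probes did. The median log2 fold change of the members was 0.84 in the cortex at 24 hr, where that of all tested probes was 0.12, and 0.45 in the hippocampus at 24 hr, where it was -0.02. At 2 weeks the hippocampal median was -0.23 against -0.11 for all tested probes, with 2 of 9 members above 0.

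**Figure D1:**
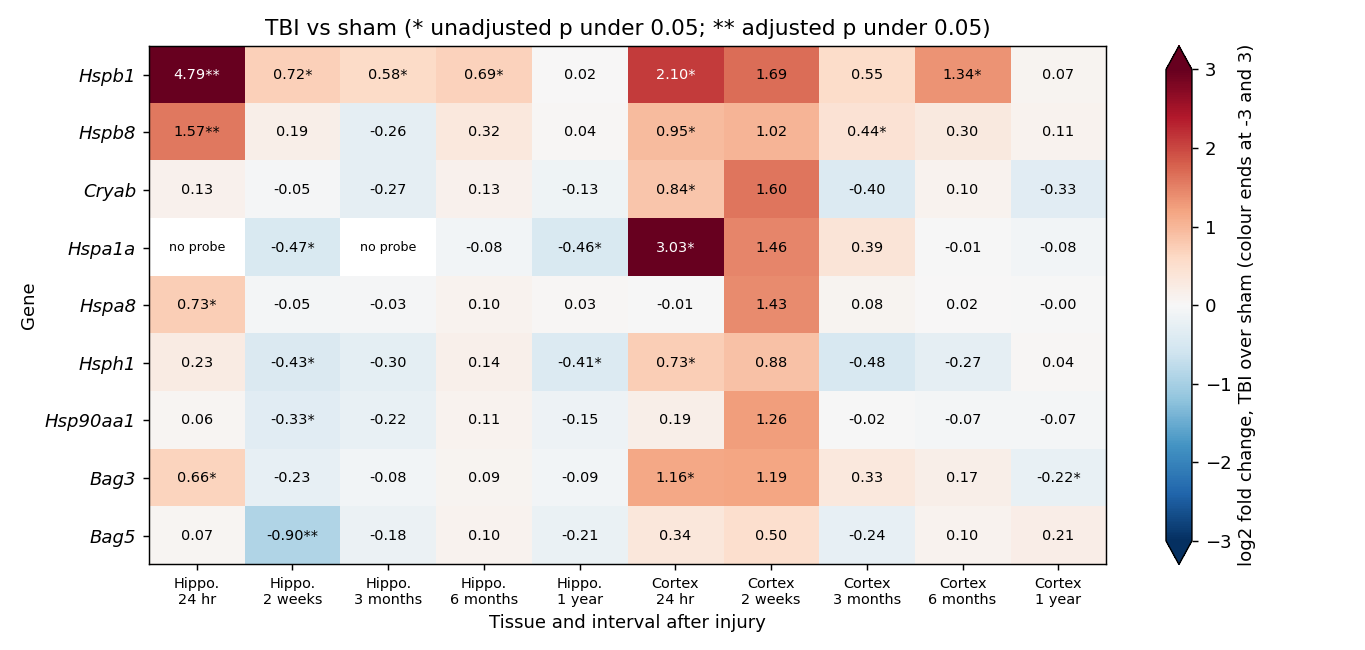
Log2 fold change of TBI over sham for each member (rows) in each tissue and interval (columns); colour runs from -3 to 3, a single asterisk marks an unadjusted p under 0.05 and a double asterisk an adjusted p under 0.05. The rises gather in the 24 hr columns, led by Hspb1 (4.79 in the hippocampus) and Hspa1a (3.03 in the cortex), and all members are above 0 in the cortex at 2 weeks, where the median of all tested probes is 0.95.

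Hspb1, the small heat shock protein that binds actin and unfolded clients, had the largest change. Its hippocampal level at 24 hr was 2.81 and 4.45 in the sham arrays and 8.35, 9.01 and 7.90 in the TBI arrays. All TBI arrays lay more than 3 log2 units above the higher sham array. The difference was 4.79 (SE 0.52), or 27.6-fold, with an adjusted p of 0.00518 in limma. The TBI and sham arrays of this interval lay on different slides scanned on different days, so slide and injury cannot be told apart. The call was kept without any of the 5 arrays and lost when dim probes were not filtered (adjusted p = 0.0726).

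Reactive astrocyte markers moved with it: all 6 that were tested of 8 were called higher, with a median log2 fold change of 4.06. Their mean level per array was 0.66 to 1.94 in sham and 4.302 to 5.46 in TBI, and 5 to 7 of the 8 were well above background per array. Microglia and macrophage markers had a mean level of 4.04 to 4.23 in sham and 4.66 to 5.33 in TBI, with 2 of 11 called higher. A list of 8 general astrocyte markers had 1 called higher and 2 lower, with a median log2 fold change of -0.36. The part of these cells in the Hspb1 difference was not tested.

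At later intervals the hippocampal Hspb1 difference was smaller and did not pass. At 2 weeks the level was 3.52, 3.90, 3.79 and 3.73 in sham and 4.19, 3.91, 5.08 and 4.65 in TBI, a difference of 0.72 (SE 0.21, adjusted p = 0.0818). The groups did not overlap, but the gap between the nearest arrays was small. Against the naive arrays of 2 weeks, at 3.53, 3.05, 3.17 and 3.32, the TBI level was 2.29-fold higher (log2 1.19, SE 0.21, adjusted p = 0.00709 in limma). This call held under the only alternatives run for it. These were the 75th percentile as reference, the replicate number as a block, and each array left out. A fit of only naive and TBI and no filter on dim probes were not run for it. Microglia and macrophage markers were called higher in TBI than in sham at this interval in 9 of 11, with a mean level of 4.04 to 4.31 in sham and 4.64 to 5.80 in TBI, and their part was not tested.

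The difference of TBI from sham was 0.58 at 3 months (unadjusted p = 0.0497, adjusted p = 0.76). At 6 months the sham arrays lay at 3.12, 3.21, 2.91 and 3.04 and the TBI arrays at 3.72, 3.85, 3.78 and 3.69, a difference of 0.69 with an unadjusted p of 0.0115 and an adjusted p of 1. The groups were apart, but 1 naive array of that interval at 4.02 lay above all TBI arrays while the other naive arrays were at 2.701, 2.77 and 2.58. At 1 year sham and TBI means were 3.99 and 4.01.

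In the cortex at 24 hr Hspb1 was high after TBI and also in part of the sham group. Its level was 3.86, 3.52, 4.05 and 4.12 in naive, 4.77, 8.42, 4.27 and 7.42 in sham, and 8.95, 7.89, 7.45 and 8.98 in TBI arrays. Sham replicates 2 and 4 thus reached the range of the TBI arrays, while sham replicates 1 and 3 lay close to the naive arrays. Compared with naive, TBI was 21.6-fold higher (log2 4.43, SE 0.77, adjusted p = 0.00817), where 17.5% of all tested probes and 3 of 9 members were called. This call held under the only alternatives run for it. These were the 75th percentile of each array as its reference, the replicate number as a block, and each array left out. Sham was 5.03-fold above naive (2.33, SE 0.76, adjusted p = 0.049), where 19.2% of all tested probes and 1 of 9 members were called and the median of all probes was -0.20. That call was lost with the 75th percentile of each array as its reference (difference 2.51, adjusted p = 0.0927 in limma). By that reference 1.75% of all tested probes were called, and their median was -0.02. The call was also lost with quantile normalization (0.0926), the authors' values (0.0934) and the replicate number as a block (0.0552). A fit of only naive and sham (0.074) and no filter on dim probes (0.128) lost it too. So did leaving out sham replicate 2 (0.114), sham replicate 4 (0.13) or any of the naive arrays. TBI exceeded sham by 2.10 (SE 0.77, 4.28-fold), with a 95% interval of 0.42 to 3.78 and an adjusted p of 0.153.

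The mean level of the reactive astrocyte markers followed the same arrays. It was 2.67, 5.03, 2.66 and 4.65 in sham replicates 1 to 4, 1.03 to 1.65 in naive and 5.03 to 6.19 in TBI arrays, so that the sham replicates with high Hspb1 were those with high markers. By fold and unadjusted p, 7 of 8 of these markers were higher in TBI than in sham. Microglia and macrophage markers had mean levels of 3.97, 5.04, 4.42 and 4.89 in sham replicates 1 to 4, 4.29 to 4.53 in naive and 5.15 to 5.67 in TBI arrays, with 8 of 11 higher in TBI than in sham by the same rule. General astrocyte markers had mean levels of 7.24 to 7.49 in naive, 7.10 to 7.33 in sham and 6.76 to 7.36 in TBI arrays. By the same rule 0 of these 8 were higher and 1 was lower in TBI than in sham. The part of these lists in the Hspb1 levels was not tested. Naive and sham arrays shared a slide here and TBI arrays lay on another.

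**Figure D2:**
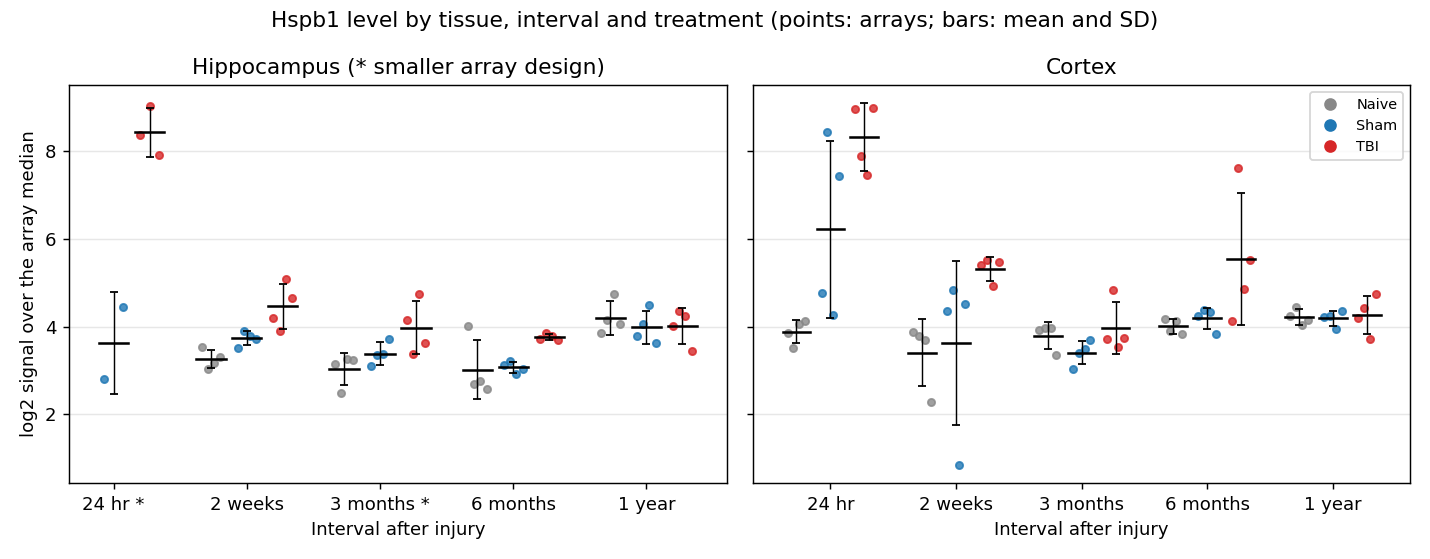
Level of Hspb1 (log2 over the array median) in every naive, sham and TBI array by interval, cortex and hippocampus in separate panels; points are arrays and bars the group mean and SD, and asterisks mark hippocampal intervals on the smaller design. TBI arrays reach 7.45 to 9.01 at 24 hr in both tissues, beside 2 cortex sham arrays at 8.42 and 7.42, and lie mostly between 3 and 6 later.

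In the cortex at 2 weeks the value depended on sham replicate 3. Without it Hspb1 lay at 4.35, 4.83 and 4.51 in sham and at 5.39, 5.51, 4.92 and 5.47 in TBI, a difference of 0.76 (unadjusted p = 0.0521, adjusted p = 0.923), or 0.71 with an adjusted p of 0.0597 when arrays were scaled by the 75th percentile. With it the difference was 1.69 (adjusted p = 0.502). At 6 months the TBI arrays were spread, at 4.13, 7.62, 4.87 and 5.52, over sham arrays at 4.23, 4.37, 4.33 and 3.84, and the difference of 1.34 had an adjusted p of 0.454. One array made most of it, since without TBI replicate 2 the difference was 0.64 (adjusted p = 0.38). The reactive astrocyte marker mean was 1.38 to 2.20 in these sham arrays and 1.60 to 3.83 in the TBI arrays. The choroid plexus marker mean was -1.49 to -0.01 in sham and 0.57 to 3.43 in TBI, and 1 of the 3 tested of 6 was called higher. Their part was not tested. At 3 months the difference was 0.55 (unadjusted p = 0.0505, adjusted p = 1) and at 1 year 0.07 (adjusted p = 0.962). Hspb1 was thus above 0 in all 10 comparisons of TBI with sham, with an unadjusted p under 0.05 in 6. Both tissues were taken from the same rats, so these comparisons are not independent.

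Hspb8, the small heat shock protein that works with Bag3, changed in the same place and to a smaller extent. At 24 hr the hippocampal level was 1.43 and 1.44 in sham and 3.19, 3.19 and 2.64 in TBI. The groups were far apart compared with their spread, and the difference of 1.57 (SE 0.20, 2.97-fold) had an adjusted p of 0.0074. Leaving out any of the 5 arrays kept this call, and it was lost with no filter on dim probes (adjusted p = 0.0869). In the cortex at 24 hr Hspb8 lay at 4.36, 3.82, 3.49 and 3.65 in naive, at 3.52, 4.27, 3.52 and 3.70 in sham, and at 5.29, 4.35, 4.21 and 4.96 in TBI. TBI was 1.82-fold above naive (0.87, SE 0.27, adjusted p = 0.0447) and 0.95 above sham (SE 0.27, adjusted p = 0.0928). The call against naive was lost without naive replicate 2, 3 or 4 or TBI replicate 1 or 4, with adjusted p from 0.0911 to 0.133. From 2 weeks on, the difference from sham lay between -0.26 and 0.44 in the hippocampus and the other cortex intervals, apart from 1.02 in the cortex at 2 weeks with the aberrant array included.

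Cryab, the small heat shock protein of the lens and of glia, moved little. Its level in the cortex at 24 hr was 7.36, 7.72, 7.68 and 7.72 in sham and 8.54, 7.88, 8.05 and 9.36 in TBI. These groups did not overlap, which was so for 1 of 9 members and for 11.7% of all probes, and the difference of 0.84 (SE 0.28) had an adjusted p of 0.127. A naive array at 8.37 lay within the TBI range. At the same interval hippocampal sham arrays lay at 8.15 and 7.66 and TBI at 8.02, 8.63 and 7.45, a difference of 0.13 with a 95% interval of -0.72 to 0.97. Cryab had no value in 1 array, cortex sham replicate 1 of 3 months, so that fit used 3 sham arrays.

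**Figure D3:**
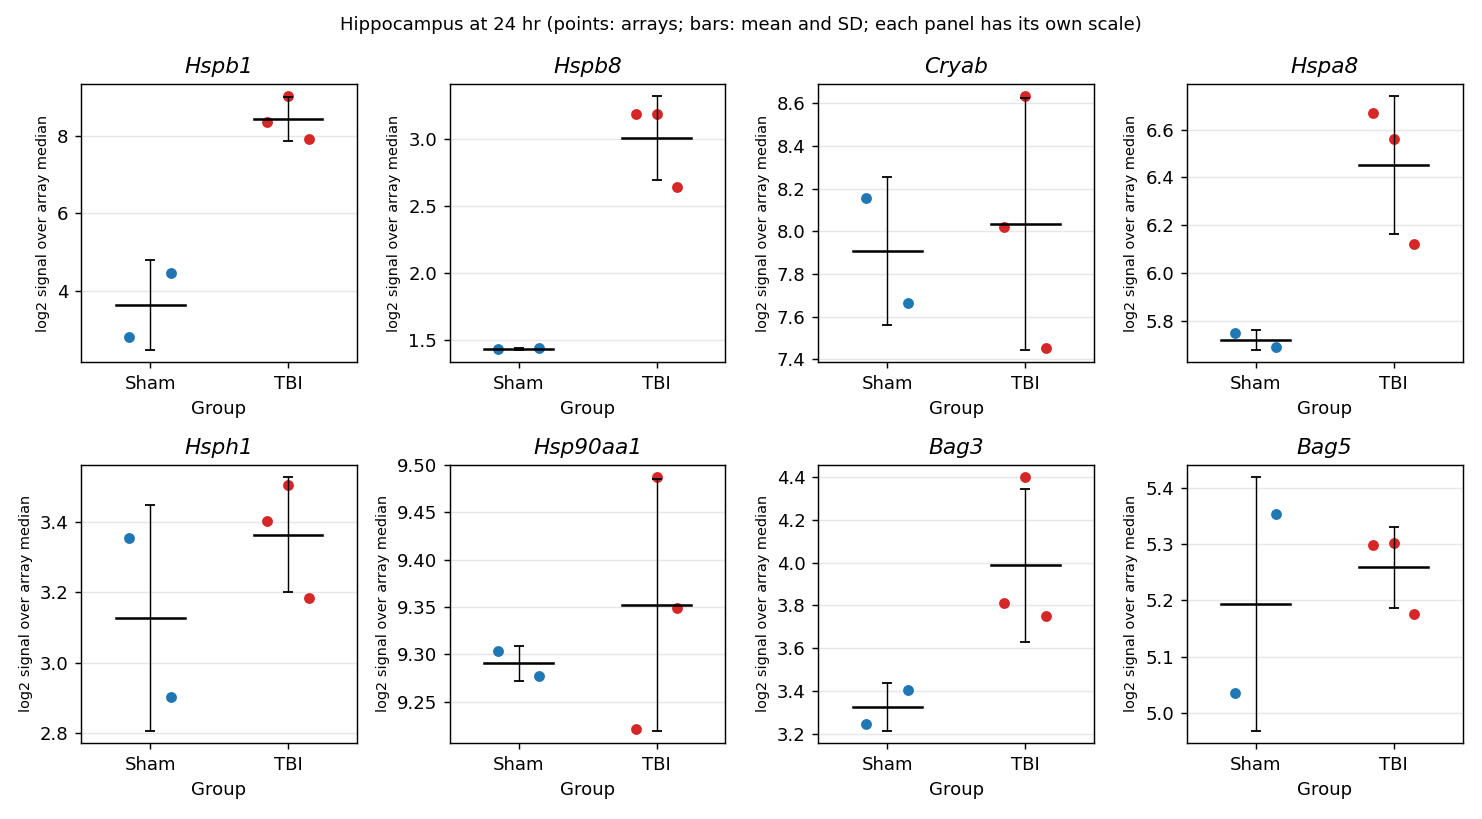
Level (log2 over the array median) of members in the hippocampus at 24 hr, with points for the 2 sham and 3 TBI arrays and bars for the group mean and SD, a panel per gene with its own axis. Hspb1 and Hspb8 are apart by 4.79 and 1.57 on average, Hspa8 and Bag3 by 0.73 and 0.66, and the other members overlap.

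Hspa1a, the inducible HSP70, was raised most in single arrays of the injured cortex at 24 hr. It lay at 1.49, 1.49, 2.07 and 2.22 in naive, at 1.27, 1.72, 1.31 and 2.36 in sham, and at 5.22, 2.75, 2.35 and 8.44 in TBI. TBI replicates 1 and 4 were far above all control arrays, while TBI replicate 3 lay level with the highest sham array. The difference from sham was 3.03 (SE 1.02, 8.15-fold, 95% interval 0.81 to 5.24) with an adjusted p of 0.127, and that from naive 2.87 (adjusted p = 0.0701). The second probe of the gene gave 2.61 (adjusted p = 0.209) and 3.21 (adjusted p = 0.0652). The same replicates 1 and 4 had the highest TBI levels of Bag3, Cryab and Hspb8.

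In the hippocampus at 2 weeks the order was another. Hspa1a lay at 2.49, 2.45, 2.04 and 2.13 in naive, 2.60, 2.82, 2.86 and 2.94 in sham, and 2.42, 2.32, 2.43 and 2.19 in TBI. Sham was above naive by 0.53 (SE 0.12, adjusted p = 0.0176), and the second probe gave 0.27 (adjusted p = 0.361). This call was lost with no filter on dim probes (adjusted p = 0.0752) and with the mean of all probes of the gene (0.0938). It was also lost without sham replicate 3 (0.0549) or 4 (0.0548). TBI was below sham by 0.47 (log2 -0.47, SE 0.12, adjusted p = 0.0557) and close to naive (0.06). Of the 9 members, 2 were called higher in sham than in naive here, where 8.97% of all probes were called, and naive and sham arrays lay on different slides. All 4 blood markers were called lower in sham, with a mean level of 8.14 to 8.55 in naive and 7.11 to 7.68 in sham, and their part was not tested. In all other comparisons of TBI with sham Hspa1a did not pass.

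Hsph1, the HSP110 that recharges HSP70, was highest in sham in the hippocampus at 2 weeks and 1 year but not at 6 months, where the group means were 4.11 in naive, 3.91 in sham and 4.05 in TBI. At 2 weeks it was 4.05, 3.86, 4.31 and 3.97 in naive, 4.45, 4.92, 4.62 and 4.40 in sham, and 4.09, 4.49, 4.23 and 3.88 in TBI. The sham arrays were all above the naive arrays (0.55, SE 0.15, adjusted p = 0.0445 in limma). This call was lost without naive replicate 1, 2 or 4 or sham replicate 2, 3 or 4, and in a fit of only these groups (0.0586). It was also lost with no filter on dim probes (0.148), quantile normalization (0.0558) and the authors' values (0.0519). At 1 year it was 3.96, 3.88, 3.78 and 4.08 in naive, 4.38, 4.44, 4.43 and 4.39 in sham, and 3.88, 4.11, 4.08 and 3.91 in TBI. Sham was again above naive, by 0.48 (SE 0.09, adjusted p = 0.0152), where 3.11% of all probes and 1 of 9 members were called. That call was lost without sham replicate 2 (adjusted p = 0.0596) or 4 (0.0513). TBI lay below sham by 0.41 (log2 -0.41, SE 0.09, unadjusted p = 0.000618, adjusted p = 0.234), and these arrays shared a slide while the naive arrays lay on another.

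At 24 hr Hsph1 in the cortex was 4.27, 3.15, 3.69 and 3.28 in sham and 4.01, 4.42, 4.04 and 4.83 in TBI, a difference of 0.73 (SE 0.25, adjusted p = 0.132). In the hippocampus the difference was 0.23 (adjusted p = 0.441).

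Hspa8, the HSP70 present in unstressed cells, stood close to its threshold in the hippocampus at 24 hr. Sham arrays were at 5.75 and 5.69 and TBI arrays at 6.67, 6.56 and 6.12, a difference of 0.73 (SE 0.20, adjusted p = 0.0557). It passed with the 75th percentile as reference (adjusted p = 0.0316), with quantile normalization (0.0293), with the authors' processed values (0.0316), with another background correction (0.0114), and without TBI replicate 3 (0.0255). The other 3 Hspa8 probes of this design gave 0.57, 0.23 and 0.08, none of them called. In the cortex at 24 hr the difference was -0.01 with a 95% interval of -0.52 to 0.49. Against naive at 2 weeks in the hippocampus the probe read here differed by -0.07 (adjusted p = 0.744), while the other 3 probes fell by 0.25, 0.30 and 0.21 (adjusted p = 0.025, 0.0162 and 0.0293).

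Hsp90aa1, the inducible cytosolic HSP90, differed from sham by -0.33 to 0.19 in all comparisons apart from the cortex at 2 weeks (1.26 with the aberrant array). At 2 weeks in the hippocampus it was 9.99, 10.08, 10.14 and 10.34 in naive, 9.91, 10.16, 10.12 and 10.13 in sham, and 9.89, 9.54, 9.61 and 9.96 in TBI. TBI fell below naive by 0.39 on the log2 scale (SE 0.11, adjusted p = 0.0423) in a comparison in which 12.8% of all probes and 3 of 9 members were called. The second probe gave -0.07 (adjusted p = 0.56), and the call was lost with the 75th percentile as reference (adjusted p = 0.0725) and without naive replicate 2, 3 or 4 or TBI replicate 1, 2 or 3. Against sham the difference was -0.33 (adjusted p = 0.108).

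**Figure D4:**
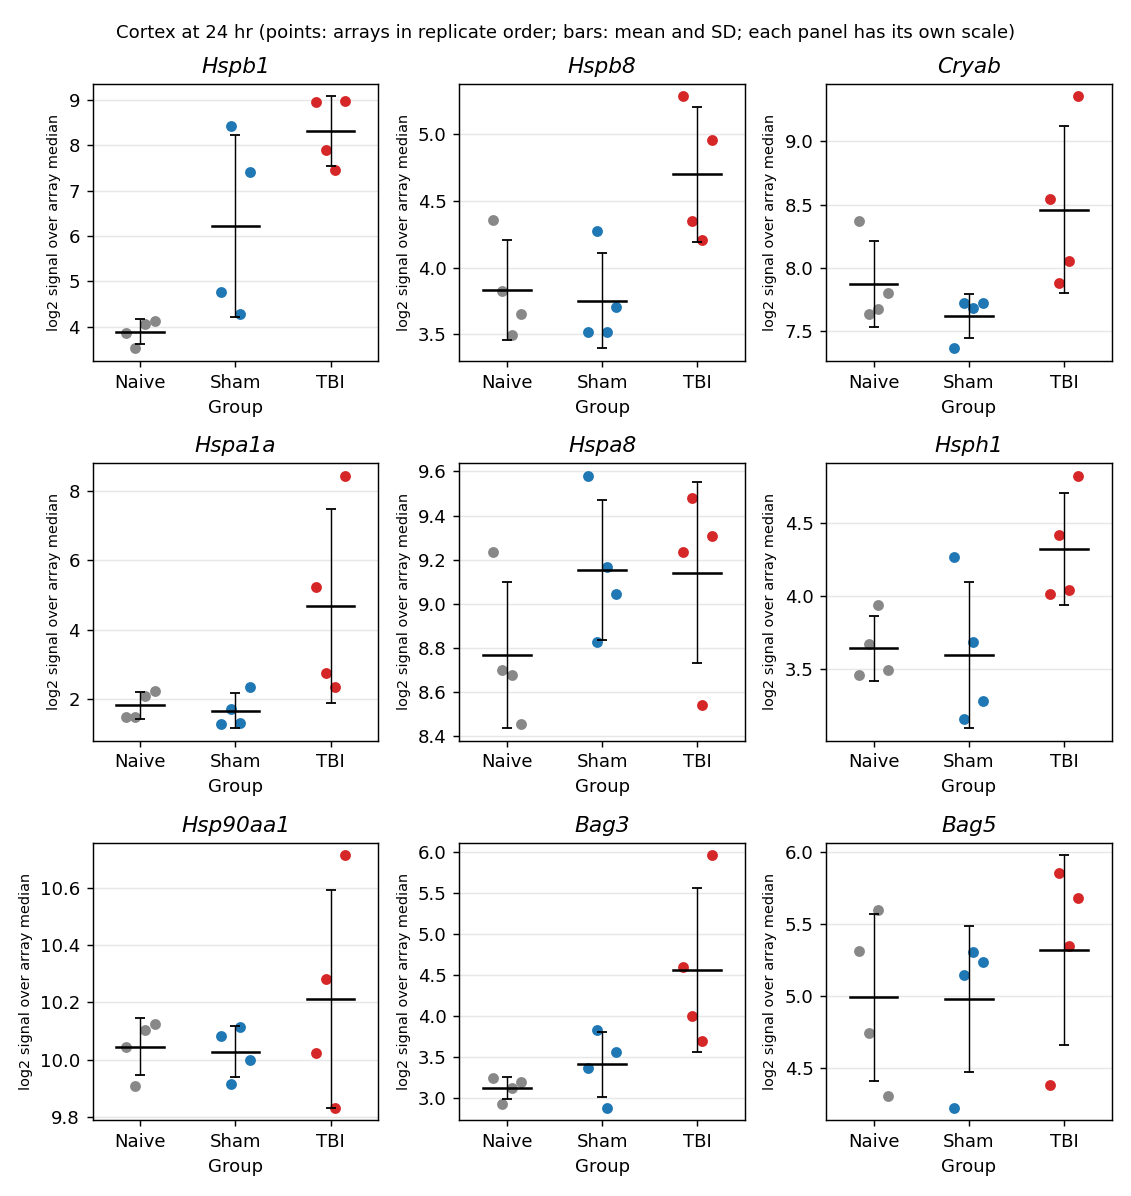
Level (log2 over the array median) of members in the cortex at 24 hr in 4 naive, 4 sham and 4 TBI arrays, a panel per gene with its own axis; points are arrays and bars the group mean and SD. The Hspb1 panel shows sham arrays at 4.77, 8.42, 4.27 and 7.42 split between the naive and TBI levels, and in the Hspa1a panel only TBI arrays exceed 2.36, at 2.75, 5.22 and 8.44.

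Bag3, the co-chaperone of HSP70 and Hspb8, rose in the cortex at 24 hr against naive. It lay at 3.24, 2.92, 3.12 and 3.18 in naive, 3.36, 3.82, 2.88 and 3.56 in sham, and 4.60, 3.996, 3.70 and 5.95 in TBI. All TBI arrays were above all naive arrays, by 2.72-fold on average (1.44, SE 0.39, adjusted p = 0.0284), and the lowest TBI array lay within the sham range. The call was lost without naive replicate 2 (adjusted p = 0.0718), 3 (0.0603) or 4 (0.0597) or TBI replicate 1 (0.0767). The difference from sham was 1.16 (SE 0.39, adjusted p = 0.129). In the hippocampus at 24 hr sham was at 3.25 and 3.41 and TBI at 3.81, 4.40 and 3.75, a difference of 0.66 (SE 0.23, adjusted p = 0.104). There the groups of 4 of 8 members did not overlap, as did those of 50.5% of all probes with 2 and 3 arrays a group.

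Bag5, a BAG protein with several BAG domains, moved the other way and later. In the hippocampus at 2 weeks it was 5.56, 5.80, 5.54 and 5.66 in naive, 5.72, 5.82, 5.90 and 5.47 in sham, and 5.08, 4.53, 4.54 and 5.16 in TBI. All TBI arrays lay below all control arrays. Bag5 fell by 0.90 against sham (SE 0.15, 1.86-fold lower, adjusted p = 0.0256) and by 0.81 against naive (SE 0.15, adjusted p = 0.00899). TBI and sham shared a slide here, and the naive arrays lay on another. The call against sham was lost in a limma fit of only these groups (adjusted p = 0.0586) and with no filter on dim probes (0.111). It was also lost without sham replicate 2, 3 or 4 or TBI replicate 3 or 4 (0.0505 to 0.0987). The call against naive held under the only alternatives run for it. These were the 75th percentile as reference, the replicate number as a block, and each array left out. A fit of only naive and TBI and no filter on dim probes were not run for it. The calls against sham and naive can therefore not be compared on those alternatives.

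In the cortex at 2 weeks Bag5 lay at 5.45, 5.37 and 5.01 in sham replicates 1, 2 and 4, at 0.08 in replicate 3, and at 4.77, 4.003, 4.14 and 4.98 in TBI. Without replicate 3 all TBI arrays were below the sham arrays, by 0.80 (log2 -0.80, adjusted p = 0.778, 2.16% of all probes called). With arrays scaled by the 75th percentile as well, the fall was 0.85 (log2 -0.85, SE 0.23) with an adjusted p of 0.0475, where 7.99% of all probes were called. With replicate 3 the difference was 0.50 (adjusted p = 0.707). A naive array at 3.84 in the cortex lay below all TBI arrays there. At 24 hr Bag5 differed from sham by 0.07 (hippocampus) and 0.34 (cortex), and from 3 months on by -0.24 to 0.21, with adjusted p of 0.691 or more.

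**Figure D5:**
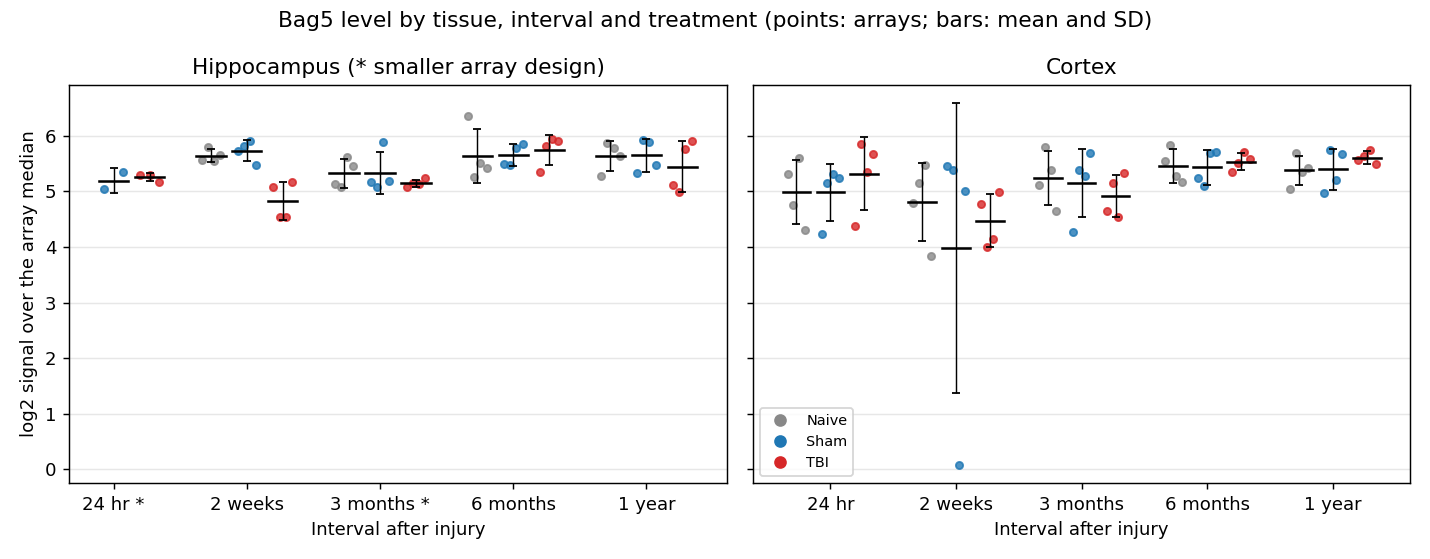
Level of Bag5 (log2 over the array median) in every naive, sham and TBI array by interval, cortex and hippocampus in separate panels; points are arrays and bars the group mean and SD, and asterisks mark hippocampal intervals measured by another probe on the smaller design. At 2 weeks the hippocampal TBI arrays lie at 4.53 to 5.16 under control arrays at 5.47 to 5.90, and cortex sham replicate 3 stands alone at 0.08.

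Differences of the TBI effect between the tissues and between intervals were tested directly. At 24 hr and 3 months the tissues were on different designs, and only probes on both were used. None of 39 tests of members between hippocampus and cortex passed (limma, 2.42% of all probes called at 24 hr, 0.004% at 6 months and 0% at 2 weeks, 3 months and 1 year), and 2 had an unadjusted p under 0.05, which 15.7%, 1.73%, 3.05%, 3.36% and 10.8% of all probes had from 24 hr to 1 year. For Hspb1 at 24 hr the effect in the hippocampus exceeded that in the cortex by 2.69, with a 95% interval of -0.26 to 5.64 and an adjusted p of 0.369. Between neighbouring intervals on the same design, 4 of 62 tests passed. In the hippocampus the effect at 24 hr exceeded that at 3 months by 4.20 for Hspb1 (SE 0.60, adjusted p = 0.00432) and by 1.84 for Hspb8 (SE 0.34, adjusted p = 0.0118), where 4.07% of all probes were called. The Hspb8 difference was not called without sham replicate 1 or 2 of 24 hr (adjusted p = 0.0678 and 0.0538). The Bag5 effect was lower at 2 weeks than at 6 months (log2 difference -0.995, SE 0.24, adjusted p = 0.0489, 2.26% called), and the Hsph1 effect at 6 months exceeded that at 1 year by 0.56 (SE 0.14, adjusted p = 0.0353, 4.77% called). Neither of these passed with the 75th percentile as reference (adjusted p = 0.13 and 0.0727), where 0.0596% and 2.73% of all probes were called. The calls were also lost without any of 13 and of 10 of the 16 arrays of each test. No test in the cortex passed, where 0% of all probes were called between any neighbouring intervals.

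Sham differed from naive in 4 of 80 tests and TBI from naive in 6 of 80, and these comparisons share arrays with each other and with TBI against sham. Sham calls of members were those of Hspa1a and Hsph1 in the hippocampus at 2 weeks, Hsph1 there at 1 year and Hspb1 in the cortex at 24 hr. No member was called in the hippocampus at 3 months (0% of all probes) or 6 months (3.54%), or in the cortex at 2 weeks (0%), 3 months (0.408%), 6 months (0%) or 1 year (4.36%). Between TBI and naive none was called in the hippocampus at 3 months (0.00638%), 6 months (3.82%) or 1 year (2.12%), or in the cortex at 2 weeks (0.12%), 3 months (0.533%), 6 months (0.253%) or 1 year (5.31%). With the 75th percentile as reference Bag3 (0.43, adjusted p = 0.0422) and Cryab (0.41, adjusted p = 0.0464) also passed in sham against naive of the hippocampus at 2 weeks, as did Bag3 there at 6 months (0.34, adjusted p = 0.048). By this reference 11.8% of all probes were called there at 2 weeks and 18.3% at 6 months. Against naive, TBI calls went from 6 to 9 with that reference: Cryab in the hippocampus at 2 weeks (0.46, adjusted p = 0.0357), Hspa8 (0.47, 0.0432) and Bag3 (0.39, 0.0379) there at 6 months and Hspb1 in the cortex at 2 weeks (1.44, 0.0301) were gained, and Hsp90aa1 in the hippocampus at 2 weeks was lost. Of all probes, 9.46% were then called in the hippocampus at 2 weeks, 13.3% there at 6 months and 0.971% in the cortex at 2 weeks.

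Levels of the naive rats gave the baseline of each gene. Within the larger design, and without the aberrant cortex group of 2 weeks, the naive group means of the cortex ranged from 3.80 to 4.22 for Hspb1, 1.82 to 2.30 for Hspa1a and 3.12 to 3.60 for Bag3, and those of the hippocampus from 3.02 to 4.20, 1.84 to 2.55 and 3.19 to 4.03. Between tissues 3 of 27 tests passed. Hspa1a was higher in the hippocampus at 2 weeks (1.22, SE 0.40, adjusted p = 0.0486, 5.02% of all probes called), against a cortex group that holds naive replicate 4 at -0.24. Without that array the difference was 0.79, still past the threshold, and with the 75th percentile as reference 0.77 (adjusted p = 0.00821), and the second probe gave 1.16 (adjusted p = 0.0684). Hspb1 was lower in the hippocampus at 6 months (log2 -0.99, SE 0.29, adjusted p = 0.00755, 16.5% called), not past the threshold without hippocampus replicate 2 (0.0511) or 4 (0.0745). Hsp90aa1 was higher there at 1 year (0.32, SE 0.10, adjusted p = 0.0302, 37.4% called). The calls of Hspa1a and Hsp90aa1 were lost without any of 5 and of 6 of their 8 arrays. At 1 year, where replicate numbers paired the tissues, a fit with the replicate number as a block also called Bag3 (0.43, adjusted p = 0.0459) and Hspb8 (0.37, adjusted p = 0.0205) higher in the hippocampus. The tissues lay on different slides, so slide and tissue cannot be told apart.

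The members were set beside 75 other genes of the chaperone network, of which 71 had a probe on the smaller design and 73 on the larger. In the hippocampus at 24 hr 9 of the 66 tested passed, 6 higher and 3 lower, beside 5.82% of all probes higher and 8.35% lower. Higher were the small heat shock protein Hspb9 (log2 2.22), the collagen chaperone Serpinh1 (1.39), the HSP70 Hspa2 (1.30), the endoplasmic reticulum J-domain protein Dnajc3 (0.84), the chaperonin subunit Cct4 (0.82) and 1 further chaperonin subunit. Lower were the small heat shock protein Hspb2 (-1.07), the J-domain protein Dnajb6 (-0.74) and the HSP90 co-chaperone Fkbp5 (-0.72). Over all intervals and both tissues the count was 10, and it was 3 without sham replicate 1 or 2 of these arrays, 4 without TBI replicate 1 or 2, and 17 without TBI replicate 3 of the cortex at 24 hr. In the cortex at 24 hr none of 71 passed, and 5 had a fold of at least 1.4 with an unadjusted p under 0.05, all higher, among them Hspa2 (1.16, adjusted p = 0.0799), Hspd1, the mitochondrial chaperonin (0.68, adjusted p = 0.0611), and Sdf2l1 of the endoplasmic reticulum (0.72, adjusted p = 0.07), which were named here after their values were seen. At 2 weeks in the hippocampus 1 of 69 passed, Hspa12a (-0.31, adjusted p = 0.0425), and it did not with the 75th percentile as reference (adjusted p = 0.165). None passed at the later intervals in either tissue.

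Genes with a pattern like that of a member were found by Pearson's r over 95 arrays of the larger design, scaled by the 75th percentile and without cortex sham replicate 3 of 2 weeks, among 11376 named genes. The points share slides, tissues and intervals, so r is a description only. Hspb1 was most like Timp1 (r = 0.87), Plp2 (0.86) and Socs3 (0.85), of which Timp1 is in the reactive astrocyte list. Hspb8 was most like Cd44 (0.74), also in that list, Mgst1 (0.73) and Ltbr (0.72). Hspa1a and Bag3 were each other's nearest gene (r = 0.81), followed for Hspa1a by Rn7sl1 (0.80) and Zfand2a (0.79) and for Bag3 by Cebpd (0.78) and Plin2 (0.77). Cryab was most like Rdx, Apod and Crem (each 0.74), Hspa8 like Tmx2 (0.85), Gnb5 (0.83) and Pdhb (0.83), and Hsph1 like Nup153 (0.66) and Pafah1b1 (0.64). For Hsp90aa1 the nearest were other chaperones, the mitochondrial HSP70 Hspa9 (0.71) and the chaperonin subunits Cct8 (0.67) and Cct6a (0.65). For Bag5 the highest values were 0.48 for Ipo4, 0.48 for Sqle and 0.47 for Mmp16. Over all pairs of members the median r was 0.20, while with the aberrant array and the median as reference it was 0.69. Within a tissue, with the median as reference and no array left out, the nearest genes were partly others. In 36 hippocampus arrays they were Renbp for Hspb1 (0.78), Ss18 for Hspa1a (0.87) and Rfx4 for Bag3 (0.86). In 60 cortex arrays they were Parp3 for Hspb1 (0.91), Bag3 for Hspa1a (0.91) and Gadd45a for Bag3 (0.94).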

How the data were processed

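RNA was amplified linearly from poly(A) RNA and hybridized with 1 dye, 1 array per sample, on a larger design of 45598 probes (96 arrays) or a smaller one of 30367 (17 arrays: the hippocampus at 24 hr and 3 months). The authors deposited the processed intensity of each spot after Agilent Feature Extraction 11.5 had subtracted the background, with flags for outliers and for spots well above background. The authors also deposited scaled intensities. The log2 of these lay within 0.05 of the log2 intensity minus an array constant in a median of 99.96% of the probes of an array, and in 84.1% in the poorest array, and the constant lay near the 75th percentile (median 74.9, range 15.9 to 75.4).

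Outlier spots were left out, spots of a probe were averaged, and the level was log2 of the processed signal minus the array median. Probes were tested where all arrays of 1 or more of the groups compared were well above background. Groups of a tissue and interval were fitted together in limma 3.58.1 (R 4.3.3), with empirical Bayes moderation and Benjamini-Hochberg adjustment over all tested probes, and an adjusted p under 0.05 was called. Per the study's methods replicates were independent rats, and both tissues came from the same rats, but whether replicate numbers match them is not given in the sources used here. The number of arrays limits the precision. Members and lists were chosen with earlier results of these data known. All members were named in each comparison by 1 probe, the brightest on both designs or else the brightest of each design (Hsp90aa1 and Bag5), other probes where they differed, up to 5 called genes of the wider list in each direction, and the 3 genes most like a member, of which 1 is not reported here.

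On simulated data with changes of 1 and 2 on the log2 scale, 76% and 94% were recovered in the hippocampus at 2 weeks (24714 probes), 33% and 81% there at 24 hr (16194) and 70% and 90% in the cortex at 24 hr (25739). Alternatives were the 75th percentile, quantile normalization, the authors' values, other filters on dim probes, the mean of all probes, fits of only the groups compared, the replicate number as a block, each array left out, the methods' rule on fold and p, and normexp background correction (offset 50), which took the median spot signal because a mean signal was not used here. Same-numbered arrays deviated together in every pair (r over 0.1) for cortex TBI and sham at 1 year (0.129 to 0.258) and for naive hippocampus and cortex at 2 weeks (0.126 to 0.303) and 1 year (0.313 to 0.462).

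Gene names came from the RefSeq table through the probe identifiers (46.3% of probes of the larger and 61.4% of the smaller design). Promoters are RefSeq sequences of GRCr8, and no coordinates were taken from the files' older build.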

Additional observations from a re-analysis of the deposited data

Results flagged for a closer look

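In groups of 4 arrays, a single array stood apart from the other 3 by Dixon's criterion in 32 of 239 groups of member levels, where chance gives about 1 in 20. Of these, 8 were the same array, cortex sham replicate 3 of 2 weeks, the array with 93.0% of its probes well above background. In it Hspb1 was at 0.847 (the others at 4.35 to 4.83), Hspa1a at -5.08 (2.05 to 2.22), Hspa8 at 3.66 (8.75 to 9.0), Hsp90aa1 at 4.57 (10.08 to 10.14), Bag3 at -0.68 (3.25 to 3.51), Bag5 at 0.0761 (5.01 to 5.45), Cryab at 2.28 (7.53 to 8.19) and Hspb8 at 0.83 (3.55 to 3.71).

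Cortex naive replicate 4 of 2 weeks was low in 3 genes, with Hspb1 at 2.28 (the others at 3.70 to 3.87), Hspa1a at -0.24 (1.30 to 1.59) and Hspb8 at 2.11 (3.64 to 3.67). Cortex sham replicate 1 stood apart at 24 hr in Bag5, at 4.23 (5.15 to 5.30), and Cryab, at 7.36 (7.68 to 7.72), and at 3 months in Bag3, at 2.46 (3.09 to 3.18), and Hspb8, at 3.24 (3.58 to 3.62).

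Hspb1 stood apart in 4 further arrays. It was at 3.34 in cortex naive replicate 4 of 3 months (3.92 to 3.97), 4.84 in cortex TBI replicate 2 of 3 months (3.54 to 3.74), 2.48 in hippocampus naive replicate 2 of 3 months (3.15 to 3.27) and 4.02 in hippocampus naive replicate 1 of 6 months (2.58 to 2.77). Without this last array TBI exceeded naive by 1.08 at 6 months (limma, adjusted p = 0.0017), and with it by 0.74 (adjusted p = 0.107). Hspa1a was at 2.73 in cortex naive replicate 2 of 1 year (2.14 to 2.18) and 1.43 in cortex naive replicate 1 of 6 months (1.92 to 2.01).

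Bag3 was at 3.65 in cortex naive replicate 1 of 3 months (3.24 to 3.25), 4.47 in hippocampus TBI replicate 3 of 3 months (3.33 to 3.40) and 3.47 in hippocampus TBI replicate 1 of 6 months (3.81 to 3.83). Bag5 was at 5.89 in hippocampus sham replicate 3 of 3 months (5.08 to 5.18). Hsp90aa1 was at 9.91 in hippocampus sham replicate 1 of 2 weeks (10.12 to 10.16) and 10.28 in replicate 4 of 6 months (10.20 in each of the others). Cryab was at 8.15 in cortex naive replicate 3 of 6 months (7.46 to 7.55), 7.58 in cortex sham replicate 2 of 6 months (7.88 to 7.93) and 7.68 in hippocampus TBI replicate 4 of 1 year (8.31 to 8.39). Hspb8 was at 4.60 in cortex TBI replicate 4 of 6 months (3.78 to 3.81) and 4.26 in hippocampus sham replicate 3 of 1 year (3.65 to 3.71).

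The TBI effect in the hippocampus differed between intervals in 4 tests of members in limma. It was higher at 24 hr than at 3 months by 4.20 for Hspb1 and 1.84 for Hspb8, lower at 2 weeks than at 6 months for Bag5 (-0.995), and higher at 6 months than at 1 year for Hsph1 (0.56).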

How the results depend on the processing

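All 20 called differences of members kept their sign under every alternative run. The filters on dim probes and the fits of only the groups compared leave the difference itself unchanged, so no sign could change under them. In groups of equal size the same held for the replicate block. The number still called was 16 of 20 with the 75th percentile and 16 of 20 with the replicate block, 5 of 7 with quantile normalization or the authors' values, 7 of 7 with normexp, 4 of 7 in fits of only the groups compared and 2 of 14 with no filter on dim probes. Of differences with an unadjusted p above 0.05, 49 of 303 changed sign with the 75th percentile. The 3 calls between TBI and sham became 1 with no filter (Hspb8 in the cortex at 24 hr, not 1 of the 3), 9 with normexp (4 of them in the cortex at 24 hr), 5 when a probe had to be well above background in every array and 15 by the methods' rule. The 4 between sham and naive became 1 with no filter, 7 with normexp and 2 in fits of only the groups compared. The 4 between intervals became 2 with the 75th percentile and 1 with no filter, and the 3 between naive tissues 8 and 0. With the 75th percentile 19.0%, 40.1% and 37.2% of all probes were called between naive tissues at 2 weeks, 6 months and 1 year. The share of all probes called was not counted under normexp, quantile normalization, the authors' values or the other filters on dim probes. It was also not counted for the mean of all probes, fits of only the groups compared, the replicate block or each array left out. The exception was the cortex at 2 weeks without sham replicate 3, for TBI against sham and sham against naive. The causes of these changes in number were not tested. Leaving out each array gave 2 to 4 calls for TBI against sham, 2 to 6 for sham against naive, 4 to 8 for TBI against naive, 0 for the tissue difference, 2 to 5 between intervals, 2 to 4 between naive tissues and 3 to 17 for the wider list.

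With the replicate number as a block, the calls were 2 for TBI against sham, 3 for sham against naive, 5 for TBI against naive, 0 for the tissue difference, 3 between intervals and 5 between naive tissues. In most comparisons same-numbered arrays did not deviate together, so the number is only a name. Bag5 in the hippocampus at 2 weeks was not called under the block (adjusted p = 0.0682 in limma), nor was Hspb1 in sham against naive cortex at 24 hr (0.0552). Where the numbers paired the arrays, the block changed no call beyond those given for naive tissues at 1 year.

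Alternatives chosen after seeing the data left out cortex sham replicate 3 of 2 weeks with the 75th percentile, which gave 5 calls for TBI against sham and 2 between intervals. The median correlation of member pairs, 0.695, became 0.33 with the 75th percentile, 0.471 without that array, 0.205 with both changes and 0.305 in hippocampus arrays. A slide block was not run because each group lay on 1 slide. Probes not well above background were not tested, and the hippocampus at 24 hr, on the smaller design, left 16224.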
